A study of Mus musculus with 12 samples.

Results

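The islets of Langerhans make several peptide hormones beside insulin. The genes of 6 of them were followed here by symbol in a deposited expression table of 23234 genes: Gcg, Sst, Ppy, Pyy, Ghrl and Iapp. All 6 symbols were found, each as a single row. The study measured total RNA of mouse islets (strain C57BL/6) before and after they were transplanted into inguinal subcutaneous white fat, the fat pad under the skin of the groin. There were 4 libraries of isolated islets, 4 of grafts taken at day 60 and 4 of grafts taken at day 120. The labels give no other treatment, and no sex, age, donor or recipient. They number the libraries 1 to 4 in each group but do not say that these came from separate animals, so p-values measure only the spread between libraries, which may be technical.

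In an islet each hormone has its main cell type. Glucagon, cut from the Gcg product, comes from alpha cells and raises blood glucose, while somatostatin (Sst) comes from delta cells and restrains the release of other hormones. Pancreatic polypeptide (Ppy) marks PP cells, and peptide YY (Pyy), of the same peptide family, is made in islets and in endocrine cells of the gut. Ghrelin (Ghrl) marks the rare epsilon cells. Islet amyloid polypeptide (Iapp, amylin) is made mainly by beta cells, stored with insulin and released with it. All are cut from longer precursors by convertases in the secretory granule.

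Levels are FPKM, fragments counted per length of gene and per sequenced total, so that genes can be set side by side per length. Averaged over the 12 libraries the order was Iapp, Gcg, Ppy, Sst, Pyy and Ghrl, at 33591, 12392, 4933, 4106, 2619.7 and 7.64 FPKM. In isolated islets the Iapp and Gcg ranges overlapped, and Iapp was the higher in 2 of 4 libraries, while each later neighbour in the order lay wholly below the one before. In the grafts Iapp stood clear of Gcg in all 8 libraries, whereas the ranges of Gcg and Ppy, of Ppy and Sst, and of Sst and Pyy overlapped at both days. Ghrl lay far below the other 5 everywhere. Insulin itself gives no usable comparison, since the table lists Ins2 at 0 in every graft and in isolated islets 1 and 2, and Ins1 at 0 in day 60 graft 4.

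**Figure D1:**
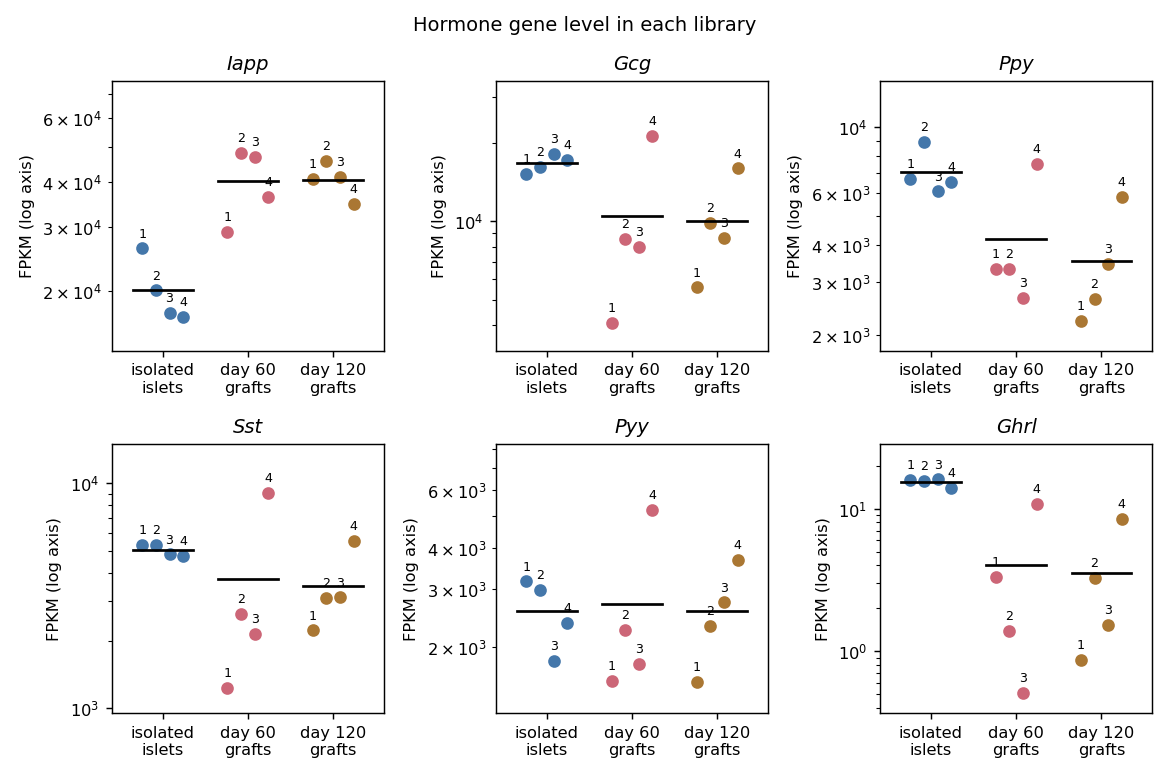
FPKM (log axis) of Iapp, Gcg, Ppy, Sst, Pyy and Ghrl in each of the 12 libraries. Each point is 1 library with its replicate number and each line is the group mean; Iapp is higher in all 8 grafts than in any isolated islet library, and for the other 5 genes graft 4 is the highest graft at both days.

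Libraries differed in more than their hormones. The 28 acinar marker genes, which mark the enzyme-secreting cells of the pancreas, summed to between 10246 and 116977 FPKM in isolated islets and to between 10.7 and 25.9 in the grafts. There, 11 of them were at 0 in every day 60 library and 12 in every day 120 library. Markers of cells of the graft site went the other way, with the 15 adipocyte genes at 112.3 to 120.5 FPKM in isolated islets, 431 to 13156 at day 60 and 415 to 1281 at day 120. Day 60 graft 1 stood apart, with the most adipocyte RNA and the lowest geometric mean of 17 endocrine reference genes. That mean was 83.3 FPKM against 175 to 302 in the other day 60 grafts, 194 to 239 in isolated islets and 257 to 310.2 at day 120. In bulk RNA, fewer cells of a type and less RNA per cell cannot be told apart. The part of these differences in the hormone results was not tested, beyond the other scalings given below.

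Changes were tested with limma on log2(FPKM + 1), with p-values adjusted over the 13433 genes with 4 or more libraries at 1 FPKM or above. All 6 hormone genes passed that filter, Ghrl with 10 of 12 libraries at 1 FPKM or more. At day 60 the test called 2 of the 6, with Iapp higher and Ghrl lower, where it called 43.7% of all tested genes (31.3% higher and 12.3% lower). At day 120 it called 3 of the 6, Iapp higher and Ghrl and Ppy lower, where it called 31.4% of all tested genes (24.3% higher and 7.03% lower). The median log2 change over the 6 genes was -0.85 at day 60 and -0.73 at day 120, against 0.27 and 0.30 over all tested genes. Both comparisons share the same isolated islets. Iapp and Ghrl had no overlap between grafts and isolated islets at day 60, nor did they and Ppy at day 120, where 31.1% and 35.5% of all tested genes had none.

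Iapp, the beta cell product, was about doubled in the grafts. Isolated islets 1 to 4 held 26174, 20053, 17342 and 16931.5 FPKM of it, day 60 grafts 29125, 48065, 46898 and 36263, and day 120 grafts 40697, 45612, 41211 and 34717. Every graft lay above every isolated islet library, and the nearest values were isolated islets 1 and day 60 graft 1. Group means were 20125 ± 4264, 40088 ± 9034 and 40559 ± 4476 FPKM (SD, n = 4 each). The log2 rise was 0.99 at day 60 (SE 0.265, limma adjusted p = 0.0107) and 1.03 at day 120 (SE 0.265, adjusted p = 0.0146).

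Iapp was higher under each of the 5 scalings tried (the deposited one and 4 others), by log2 0.58 to 1.29 at day 60 and 0.67 to 1.03 at day 120, but 3 of the 5 called it at each day. The median change of all tested genes also moved with the scaling, from 0.27 as deposited to between -0.0589 and 0.535 at day 60 and from 0.30 to between 0.0105 and 0.172 at day 120. Scaled to the summed FPKM of genes other than hormones and acinar genes, its day 60 rise was 0.58 (limma adjusted p = 0.102), and scaled to endocrine reference genes its day 120 rise was 0.67 (adjusted p = 0.460). The day 120 call was also lost without isolated islets 3 (log2 0.96, adjusted p = 0.0545) or isolated islets 4 (0.95, 0.0597). Isolated islets 1, with the highest Iapp of its group, also had the least acinar RNA and the most RNA of 15 beta cell genes, at 3163 FPKM against 849 to 1131 in the other isolated islets. Of those 15 beta cell genes, 2 fell and 0 rose at day 60, where 43.7% of all tested genes were called. At day 120, 2 of the 15 rose and 1 fell, where 31.4% of all tested genes were called. The falls included Npas4, an activity-dependent transcription factor gene, at both days (log2 -2.81 and -2.19). The glucose-6-phosphatase gene G6pc2 rose at day 120 (1.93). The table gives no strand, and the Iapp gene overlaps Slco1a5, whose own level was at most 2.94 FPKM.

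Ghrl, the ghrelin gene, had the largest relative fall of the 6. Isolated islets 1 to 4 held 15.9, 15.6, 16.0 and 14.0 FPKM, a tight group. Day 60 grafts held 3.33, 1.40, 0.512 and 10.8 FPKM and day 120 grafts 0.869, 3.27, 1.53 and 8.465, so every graft lay below every isolated islet library while the grafts spread widely. Log2 changes were -2.15 at day 60 (SE 0.578, limma adjusted p = 0.0111) and -2.14 at day 120 (SE 0.578, adjusted p = 0.0176). This fall was called under all 5 scalings at both days. Leaving out 1 library at a time kept the call at both days, but at day 120 often narrowly. There limma's adjusted p was 0.0470 to 0.0496 without isolated islets 2, 3 or 4 or day 120 grafts 1 or 3. With isolated islets 1 and day 60 graft 1 both left out, the day 60 change of Ghrl, -2.21, had an adjusted p of 0.0504. The ghrelin acyltransferase gene Mboat4, named after its values were seen, stayed at or below 0.163 FPKM in every library.

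Ppy, the pancreatic polypeptide gene, fell in the day 120 grafts. In isolated islets 1 to 4 it stood at 6698, 8886, 6071 and 6553 FPKM. In day 60 grafts it stood at 3338, 3318, 2654 and 7536, where graft 4 reached into the isolated islet range, and in day 120 grafts at 2226, 2631, 3471 and 5816, all below isolated islets. Its log2 change was -1.08 at day 120 (SE 0.361, limma adjusted p = 0.0388) and -0.85 at day 60 (SE 0.361, adjusted p = 0.0710). The day 120 call was fragile. It was lost on leaving out any one of isolated islets 1, 2, 3 or 4 or day 120 grafts 1, 2 or 3 (adjusted p from 0.0541 to 0.111, log2 from -1.15 to -0.89), and held without day 120 graft 4. It was also lost with a pseudocount of 10 (adjusted p = 0.0580) and with no filter on low values (0.0524). Ppy was lower under all 5 scalings, and called under 2 of them at day 60 and 3 at day 120.

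Gcg, the glucagon gene, was the tightest of the abundant hormones in isolated islets together with Sst, and did not pass the test in grafts. Isolated islets 1 to 4 held 15169.8, 16216, 18135 and 17293 FPKM of Gcg, a coefficient of variation of 7.72%. Day 60 grafts held 4072, 8574, 7957 and 21253 FPKM and day 120 grafts 5578, 9839, 8634 and 15981, with coefficients of 71.3% and 43.6%. At each day grafts 1, 2 and 3 lay below every isolated islet library, but at day 60 graft 4 exceeded them all. Log2 changes were -0.93 at day 60 (95% interval -1.88 to 0.0254, limma adjusted p = 0.104) and -0.84 at day 120 (-1.79 to 0.12, adjusted p = 0.156). With the replicate number as a block the day 60 value passed (limma adjusted p = 0.0450). Over all tested genes, however, deviations of same-numbered isolated islets and day 60 grafts correlated at only -0.0699 to 0.0199. Gcg also passed at day 60 when scaled to the sum without hormone and acinar genes (log2 -1.33, adjusted p = 0.0471), and at day 120 when only those 2 groups were fitted (adjusted p = 0.0240), as did Sst (0.0485).

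Sst, the somatostatin gene, did not pass the test either. Its levels were 5308, 5348, 4830.4 and 4761 FPKM in isolated islets, 1232, 2625, 2136 and 9059 in day 60 grafts and 2217, 3097, 3112 and 5549 in day 120 grafts. Graft 4 was above every isolated islet library at both days and the other 6 grafts were below them all. The log2 changes of -0.85 (95% interval -1.90 to 0.21, limma adjusted p = 0.174) and -0.62 (-1.67 to 0.44, adjusted p = 0.340) did not pass. At day 120 the direction depended on scaling, since quantile normalization gave 0.0235 where the other 4 scalings gave values below 0.

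Leaving out day 60 graft 4 changed the day 60 result for these 3 genes. Without it Gcg fell by 1.35, Sst by 1.41 and Ppy by 1.18 on the log2 scale (limma adjusted p = 0.00885, 0.00487 and 0.00875), and 5 of the 6 hormone genes were called, where 42.4% of all tested genes were. Leaving out day 60 graft 1 instead moved Gcg to -0.56 and Sst to -0.45 (adjusted p = 0.222 and 0.399). With both grafts numbered 4 left out, a choice made after the values were seen, 5 of 6 were called at day 60 and 5 of 6 at day 120, against 39.8% and 19.4% of all tested genes. The sixth was Pyy in each case.

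Pyy, the peptide YY gene, differed little between the group means while its libraries spread widely. Isolated islets 1 to 4 held 3163, 2974, 1819 and 2365 FPKM, day 60 grafts 1577, 2258, 1777 and 5202, and day 120 grafts 1570.2, 2322, 2731 and 3679.7. The 3 groups overlapped. Log2 changes were -0.0744 at day 60 (95% interval -0.89 to 0.74) and -0.0357 at day 120 (-0.85 to 0.78), so a change of up to about 0.8 in either direction is within the intervals, and the sign turned under quantile normalization at both days and under endocrine reference scaling at day 60.

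**Figure D2:**
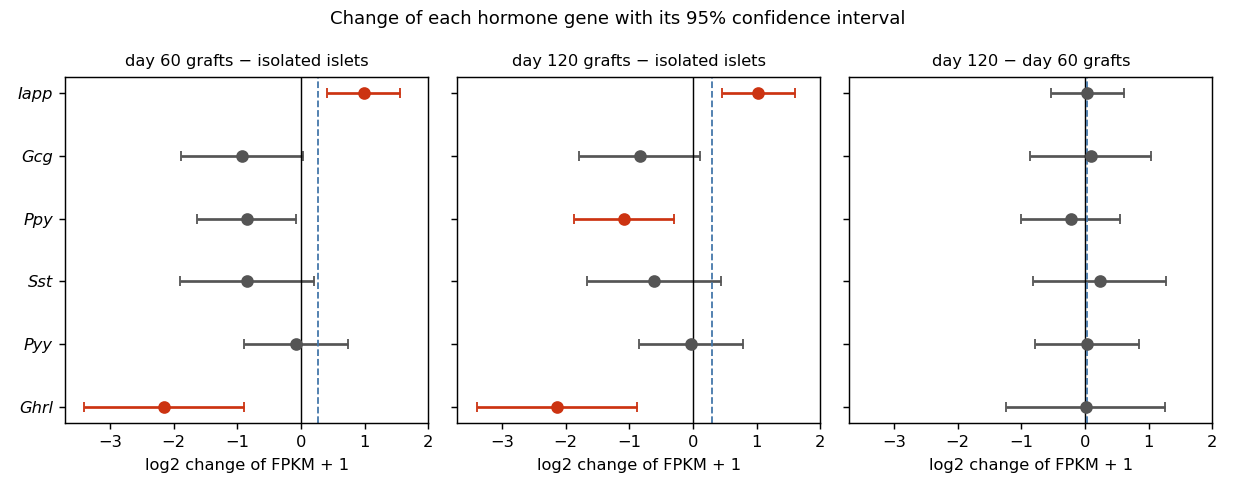
Log2 change of FPKM + 1 for each gene (points) with its 95% confidence interval (bars) in the 3 comparisons, red where limma's adjusted p is under 0.05; the dashed line is the median of all tested genes. Iapp lies above 0 and Ghrl below it against isolated islets at both days, Ppy is called at day 120 only, and no gene is called between the graft days.

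Pyy and Ppy are direct neighbours on chromosome 11 and belong to 1 peptide family, but their transcripts share 0 sequences of 31 bases, so long matching reads would not be split between them. The ratio of Ppy to Pyy, looked at after the values were seen and given without a test, was 2.12, 2.99, 3.34 and 2.77 in isolated islets 1 to 4. It was 2.12, 1.47, 1.49 and 1.45 at day 60 and 1.42, 1.13, 1.27 and 1.58 at day 120. All 8 grafts had a lower ratio than each isolated islet library, although day 60 graft 1 (2.117) and isolated islets 1 (2.118) were all but equal. The ratio of Gcg to Pyy was also looked at after the values were seen and is given without a test. It ran from 4.80 to 9.97 in isolated islets and from 2.58 to 4.48 in the grafts, with no overlap. How often ratios of other genes fail to overlap was not counted.

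Between the graft days none of the 6 genes passed. By limma 0 of 6 had an adjusted p and 0 of 6 an unadjusted p under 0.05, where 0.0149% of all tested genes were called (0.00744% higher and 0.00744% lower). All 6 genes overlapped between the days, and 4.29% of all tested genes did not. Log2 differences, day 120 against day 60, ran from -0.23 for Ppy to 0.23 for Sst. The 95% intervals were wide, at -0.53 to 0.61 for Iapp, -0.86 to 1.04 for Gcg and -1.24 to 1.27 for Ghrl, so changes of that size remain possible. These come from the fit without pairs. With only the grafts fitted and their numbers as a block, the SE was 0.292 for Gcg (0.440 without), 0.363 for Ghrl (0.578) and 0.321 for Iapp (0.265), and 0 of 6 passed. Under endocrine reference scaling all 6 differences were below 0, from -0.89 for Ppy to -0.43 for Sst, and none passed. Day 60 graft 1 had the lowest reference genes, and its part in this was not tested.

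Ratios within a library do not change when all its values are multiplied by 1 factor, as in 4 of the 5 scalings, but do under quantile normalization. They were taken from the deposited values. The ratio of Gcg to Iapp was 0.580, 0.809, 1.05 and 1.02 in isolated islets 1 to 4. It was 0.140, 0.178, 0.170 and 0.586 in day 60 grafts and 0.137, 0.216, 0.210 and 0.460 in day 120 grafts. All 4 day 120 grafts were below every isolated islet library, and at day 60 graft 4 overlapped with isolated islets 1. The log2 difference was -1.91 at day 60 (exact permutation p = 0.0571) and -1.86 at day 120 (exact permutation p = 0.0286). For Sst to Iapp the differences were -1.83 and -1.64 (exact permutation p = 0.0571 and 0.0286), and for Ppy to Iapp -1.84 and -2.11 (exact permutation p = 0.0286 at both days).

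The ratios among Gcg, Sst and Ppy had smaller differences. Gcg to Sst differed from isolated islets by log2 -0.0813 at day 60 and -0.22 at day 120, and Gcg to Ppy by -0.0724 and 0.24 (exact permutation p from 0.171 to 0.857). Sst to Ppy differed by 0.00895 at day 60 (exact permutation p = 0.914) and by 0.47 at day 120 (exact permutation p = 0.0286), there from 0.602 to 0.796 in isolated islets to 0.897 to 1.18 in grafts. Of all 18 ratio tests, two-sided, 5 had an unadjusted p of 0.0286, the smallest that 4 against 4 libraries can give, and 0 passed after adjustment (lowest adjusted p = 0.103). At least 11 tests at that smallest p would have been needed for any to pass.

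Seen as shares, Iapp took 38.8% ± 5.10 of the summed FPKM of the 6 genes in isolated islets, 67.6% ± 14.6 at day 60 and 68.0% ± 10.7 at day 120 (SD, n = 4 each). Gcg took 32.7% ± 5.02, 15.8% ± 7.42 and 16.3% ± 5.75 in the same order. In the 6 grafts not numbered 4 the Iapp share was 69.7% to 77.8%. It was 45.7% in day 60 graft 4, within the isolated islet range of 35.3% to 46.3%, and 52.8% in day 120 graft 4. The sum of the 6 genes was 47917 to 56528 FPKM in isolated islets, 39348 to 79323 at day 60 and 52289 to 65752 at day 120, so the ranges of the total overlapped.

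**Figure D3:**
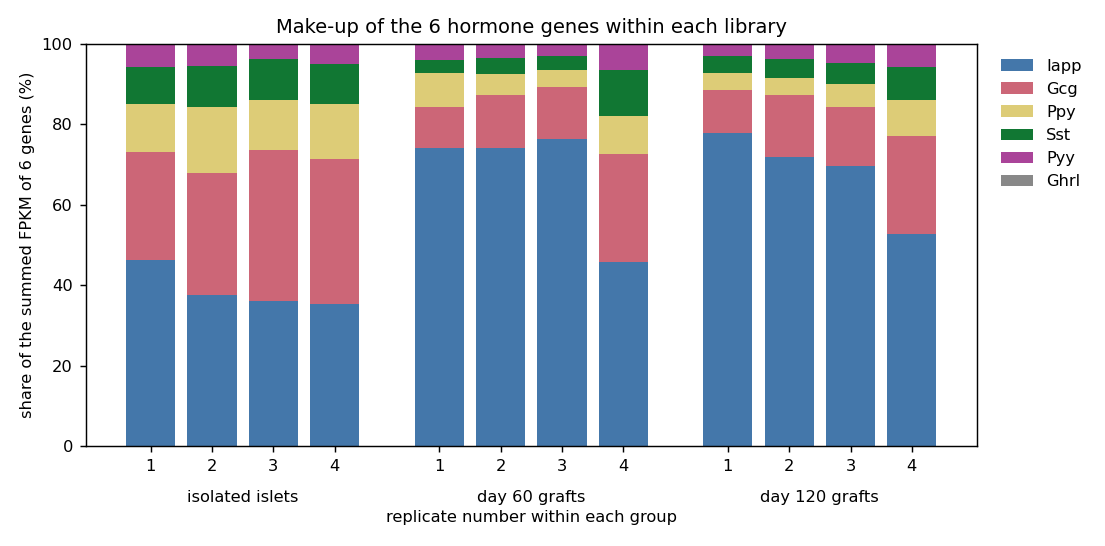
Share (%) of the summed FPKM of the 6 hormone genes held by each, per library, with libraries grouped as isolated islets, day 60 grafts and day 120 grafts and numbered by replicate. Iapp holds 69.7% to 77.8% in the 6 grafts not numbered 4 and 35.3% to 52.8% elsewhere; Ghrl is too low to be seen.

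Grafts with the same number resembled each other across the days, although the labels do not say what a number stands for. Over all tested genes, deviations from the group means of same-numbered day 60 and day 120 grafts correlated at 0.18 to 0.442, above every differently numbered pair (at most 0.0982). Among the hormone genes, Gcg had the order 1, 3, 2, 4 from low to high at both days. Graft 4 was the highest graft for Gcg, Sst, Ppy, Pyy and Ghrl at both days, and graft 1 the lowest for Gcg, Sst and Pyy at both. Iapp did not follow. It was lowest in graft 1 at day 60 and in graft 4 at day 120. Graft 1 also had the most RNA of 7 red blood cell genes at each day, at 28866 and 21926 FPKM. The other grafts held 1855 to 2747 FPKM at day 60 and 1944 to 3771 at day 120. The part of blood RNA in these orders was not tested.

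Across all 12 libraries, deviations from the group means of Gcg correlated with those of Sst at 0.96, of Pyy at 0.84 and of Ppy at 0.78, but with those of Iapp at 0.0161. These coefficients are descriptions over libraries that share their scaling. Some regulator genes of alpha and delta cells were high in day 60 graft 4. The alpha cell factor genes Irx1 and Irx2 were each highest of the day 60 grafts in graft 4, at 5.43 and 7.57 FPKM, against 1.40 to 1.91 and 1.49 to 3.86 in the other 3. The delta cell factor gene Hhex was 14.2 FPKM there against 4.18 to 6.91. At day 120 Irx1 and Hhex were highest in graft 4 and Irx2 in graft 2. These 3 genes were named after their values were seen, and the whole alpha cell list did not follow them. Its summed level was 786 FPKM in day 60 graft 4 against 1147 and 1094 in grafts 2 and 3, and at day 120 graft 4 had the lowest sum (658 FPKM). The summed delta cell list was highest in graft 4 at both days, at 291 and 295 FPKM. That sum is no measure of delta cells alone, since Pdx1 is also on the beta cell list and Isl1 among the endocrine reference genes. In day 60 grafts Rbp4, Isl1, Pdx1 and Sstr3 of this list averaged 82.7, 42.3, 35.9 and 26.3 FPKM, against 7.59 for Hhex. They too were named after their values were seen.

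Neither Irx1 nor Irx2 passed the test in grafts. Irx1 had log2 changes of -0.11 and 0.10 at day 60 and day 120, and Irx2 of -0.14 and 0.0834. Of 14 tested alpha cell genes, 4 rose and 1 fell at each day, with a median change of -0.0523 and 0.30. Over all tested genes, 43.7% were called at day 60 and 31.4% at day 120. The vitamin D-binding protein gene Gc, an alpha cell marker, rose from 40.1 ± 8.74 to 139 ± 60.5 and 119 ± 22.7 FPKM (log2 1.65 and 1.54). Tmem27, an endocrine membrane protein gene, rose by 1.39 and 1.04 and the cofactor gene Ldb2 by 2.12 and 1.71, while the amino acid transporter gene Slc38a5 fell (log2 -1.04 and -1.30). Ldb2 is known in endothelial cells too, and 5 of 13 endothelial genes rose at day 60, where 31.3% of all tested genes rose. The part of endothelial cells in the Ldb2 result was not tested. Of 10 tested delta cell genes only 1 passed at each day, both upward: Nrn1 at day 60 (0.75) and the endocrine progenitor factor gene Neurog3 at day 120 (1.14).

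**Figure D4:**
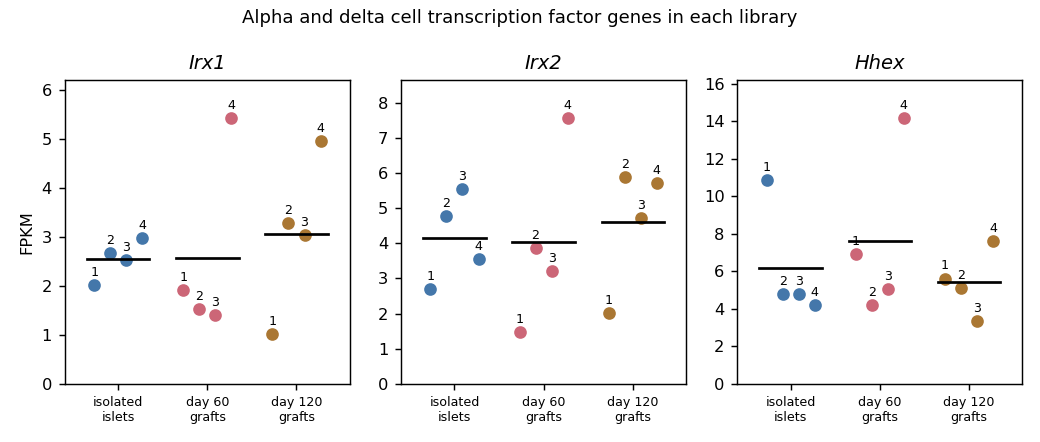
FPKM of the transcription factor genes Irx1 and Irx2 (alpha cells) and Hhex (delta cells) in each library, with replicate numbers at the points and group means as lines. The ranges of isolated islets and grafts overlap for all 3 genes, and graft 4 has the highest day 60 value of each.

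Genes that turn hormone precursors into secreted peptides changed in both directions. Of 20 listed genes 19 were tested, and 5 rose and 2 fell at day 60, 4 rose and 1 fell at day 120, where 43.7% and 31.4% of all tested genes were called. Those that rose at both days were subunits of the signal peptidase, which removes the leader of secreted proteins: Sec11c (from 156 ± 15.3 to 356 ± 88.8 and 299 ± 59.4 FPKM, log2 1.16 and 0.92), Spcs1 (0.84 and 0.64) and Spcs2 (0.61 and 0.82). Dpp4, whose protease inactivates incretins, rose at day 60 (1.03), and the carboxypeptidase gene Cpd fell (-0.94 and -0.75). The convertase genes Pcsk1 (0.0533 and 0.47) and Pcsk2 (-0.46 and 0.24), named after their values were seen, did not pass at either day. The list's median log2 change was 0.17 and 0.35, against 0.27 and 0.30 over all tested genes.

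Most receptors of these hormones were barely measured. Of 20 receptor and accessory protein genes, 11 did not pass the filter on low values, among them the somatostatin receptor genes Sstr1, Sstr2, Sstr4 and Sstr5 and the ghrelin receptor gene Ghsr, with at most 1.20 FPKM in any library. Of the 9 tested, 3 rose and 1 fell at day 60, where 43.7% of all tested genes were called. At day 120, 3 of the 9 rose, where 31.4% of all tested genes were called. Among the 9 was a further somatostatin receptor gene, Sstr3, named after its values were seen. Its group means were 29.6 FPKM in isolated islets, 26.3 at day 60 and 45.1 at day 120. It did not pass at either day (log2 -0.34 and 0.59). Calcrl (log2 1.47 and 1.18) and Ramp2 (1.69 and 1.12), which together form a receptor for adrenomedullin, rose at both days. Ramp3, a partner in an amylin receptor, fell at day 60 (-1.04). The receptor gene it partners there, Calcr, named after its values were seen, was at most 0.025 FPKM in any library. Npy1r, a receptor of Pyy, rose by 0.52 at day 60. Glp1r, the beta cell receptor of the Gcg product GLP-1, rose at day 120 from 41.8 ± 23.7 to 82.3 ± 19.9 FPKM (1.08, limma adjusted p = 0.0434). The glucagon receptor gene Gcgr (0.45 and 0.57) did not pass.

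Other peptide hormone genes changed in both directions. Of 14 tested of 30 listed, 6 rose and 3 fell at each day, where 43.7% and 31.4% of all tested genes were called. Neuropeptide Y (Npy), also of the Ppy family, fell from 21.4 ± 4.37 to 1.16 ± 0.817 and 1.60 ± 0.896 FPKM (log2 -3.44 and -3.14, limma adjusted p = 1.22e-05 and 3.07e-05). The neuropeptide gene Vip fell from 8.83 ± 4.67 to 0.215 ± 0.249 and 0.0152 ± 0.0305 FPKM (-2.85 and -3.09). Cholecystokinin (Cck), a gut hormone, rose from 0.0792 ± 0.158 to 18.97 ± 14.2 and 3.88 ± 1.65 FPKM (3.99 and 2.11), and the opioid precursor genes Penk (3.22 and 2.68) and Pdyn (1.74 and 1.91) rose as well. Between the graft days, 0 of the 76 tested genes of the precursor, receptor, peptide and cell marker lists of alpha, delta and beta cells passed by limma, and 18 had an unadjusted p under 0.05. Over all 13433 tested genes these counts were 2 and 1356.

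The genes whose level over the 12 libraries followed a hormone gene most closely, among 5088 genes of at least 10 FPKM on average, differed between Iapp and the rest. Iapp was followed by Dnajc10, a disulfide reductase gene of the endoplasmic reticulum (Pearson r = 0.98), Dapl1 (0.97) and the thyroxine-binding globulin gene Serpina7 (0.97). Dapl1 ran from 12.9 to 71.8 FPKM in isolated islets and from 194 to 445 in the grafts. Gcg was followed by the splicing factor gene U2af2 (0.95), Rnf167 (0.91) and Sphk2 (0.91), and Sst by Nt5dc2 (0.92), U2af2 (0.91) and Dpf2 (0.89). For Ppy the nearest were Uchl1 (0.88), Eif1 (0.86) and Gps2 (0.86), and for Pyy Cyth2 (0.82), Rnf220 (0.80) and Fxyd3 (0.79). These are descriptions over libraries that fall into separate groups and share their scaling.

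**Figure D5:**
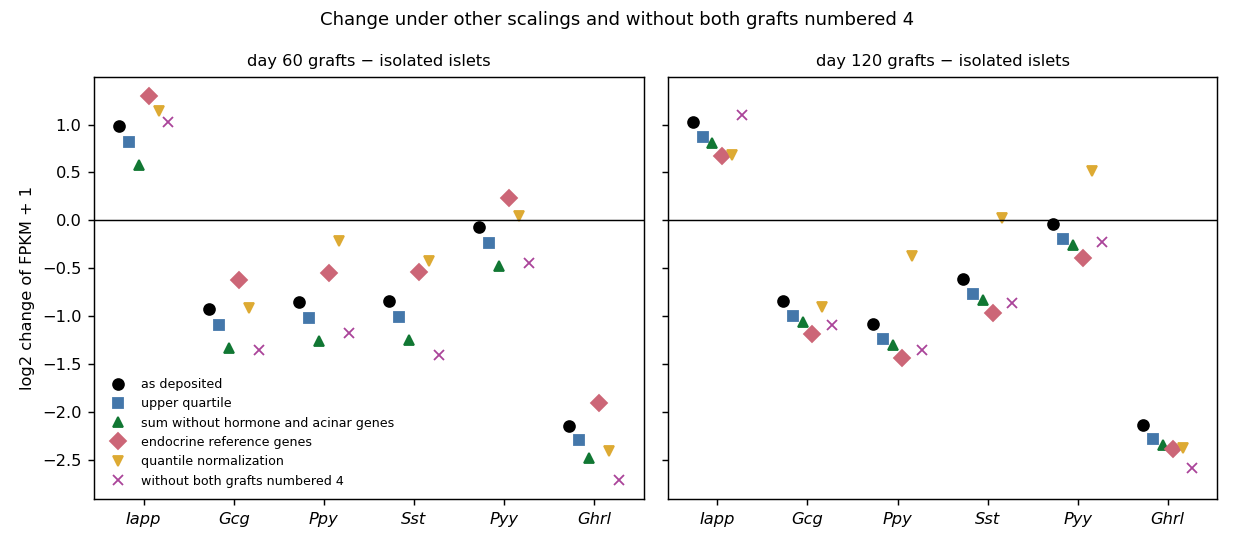
Log2 change of FPKM + 1 against isolated islets at day 60 (left) and day 120 (right) for the 6 genes, as deposited, under 4 other scalings and without both grafts numbered 4. Iapp stays above 0 and Gcg, Ppy and Ghrl below it at every point, while Pyy lies on either side and Sst reaches 0.0235 at day 120 under quantile normalization.

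All 6 genes had an entry in a RefSeq table of promoters (build GRCm38.p6, not the build named for the expression values). The stretches below show the proximal promoters of the gene that rose, Iapp, and of Gcg, Sst and Ppy, whose deviations from the group means correlated with each other at 0.78 to 0.96 over the 12 libraries. That is not particular to them, since deviations of Pyy correlated with theirs at 0.84 to 0.92 and those of Ghrl at 0.69 to 0.87. The stretches are printed 5′ to 3′ on the gene's strand, from 210 to 11 bases before the start. The Sst stretch covers only the 30 bases around its cyclic AMP response element. Capitals mark TAAT, the core read by homeodomain factors such as Pdx1, the E-box CANNTG read by factors such as Neurod1, TATAAA, and the cyclic AMP response element TGACGTCA, each searched on both strands. Matches can overlap, as in the ATTAAT run of Iapp, which holds 2 of its TAAT matches.
Iapp, chr6:142298215-142298414, plus strand: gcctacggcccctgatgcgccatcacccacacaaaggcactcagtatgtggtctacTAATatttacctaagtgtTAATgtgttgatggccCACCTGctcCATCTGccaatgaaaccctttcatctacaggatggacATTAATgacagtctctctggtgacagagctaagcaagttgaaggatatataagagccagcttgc
Gcg, chr2:62483664-62483863, minus strand: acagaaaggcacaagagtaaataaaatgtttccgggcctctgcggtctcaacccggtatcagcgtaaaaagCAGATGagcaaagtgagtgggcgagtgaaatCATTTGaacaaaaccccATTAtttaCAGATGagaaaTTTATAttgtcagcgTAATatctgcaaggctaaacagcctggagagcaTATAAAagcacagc
Sst, chr16:23890874-23890903, minus strand: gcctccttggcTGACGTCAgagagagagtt
Ppy, chr11:102101330-102101529, minus strand: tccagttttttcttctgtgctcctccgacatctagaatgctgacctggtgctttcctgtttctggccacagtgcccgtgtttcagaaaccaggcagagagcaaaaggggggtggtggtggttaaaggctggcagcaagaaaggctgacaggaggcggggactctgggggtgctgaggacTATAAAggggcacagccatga
The Iapp stretch held 4 TAAT and 2 E-box matches, the Gcg stretch 2 TAAT, 3 E-box and 2 TATAAA matches, and the Ppy stretch 1 TATAAA match and 0 of the others. The whole 200 bases of Sst, printed only in part, held 1 TAAT, 1 E-box, 0 TATAAA and 1 TGACGTCA match. Those of Pyy and Ghrl, not printed, held 0 TAAT and 0 TATAAA matches. Of 32851 windows of the same 200 bases over all RefSeq promoters, 47.7% held TAAT, 58.6% CANNTG, 10.2% TATAAA and 1.4% TGACGTCA. A match shows only that these letters are there, and the expression values hold no measure of binding.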

How the data were processed

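FPKM values, computed by the authors, were deposited as 1 table with a column for each of 12 libraries. The submitters' processing notes name TopHat2, Cufflinks 2.1.1 and mm9, a mouse build; the annotation, options and any scaling between libraries are not given in the sources used here. Per the labels' protocols, cDNA came from a SMARTer low-input kit and libraries were amplified by PCR, so fragments are not independent molecules. The total depth is unknown, and no counting interval is given. The sum of all FPKM in a library ran from 396769 to 786366.

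Values were taken as log2(FPKM + 1), which understates changes of low genes such as Ghrl, with no further scaling. Genes with at least 1 FPKM in at least 4 libraries (13433, with 9801 left out) were fitted with limma 3.58.1 and statmod 1.5.0 in R 4.3.3 on the 12 libraries together (a term for group, trended and robust variances). Its two-sided p-values were adjusted over all tested genes by the method of Benjamini and Hochberg, and 0.05 was the threshold. Each gene's adjusted p in the text is limma's. Intervals are at 95%. The script was tested on simulated data. Ratios of FPKM between 2 hormone genes were compared by exact permutation (Python 3.11.15), adjusted over the 18 tests.

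The genes followed, the gene lists, the tests and the alternatives were chosen with earlier results of these data known. Named were the 6 genes, up to 4 genes of each list per comparison with the smallest p among those past the threshold, and for each of Gcg, Sst, Ppy, Pyy and Iapp the 3 genes of most similar level; others are marked where they appear. Of each list fewer may be printed. Deviations from group means correlated between same-numbered day 60 and day 120 grafts (0.18 to 0.442), and not between same-numbered isolated islets and grafts (-0.0784 to 0.0199). Whether the numbers mark pairs is not stated in the labels and was not tested. Alternatives were other pseudocounts, filters, scalings and weights, the replicate block, other sets of groups and libraries left out. Leaving out both grafts numbered 4, leaving out isolated islets 1 with day 60 graft 1, and the block on grafts only were added after seeing the data. Some genes of the lists are not reported here by name.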

Additional observations from a re-analysis of the deposited data

Results flagged for a closer look

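Of 18 sets of 4 libraries (6 genes in 3 groups), 1 held a library far from the others. In day 60 grafts, the gap between graft 4 and the next library in Ppy FPKM was 0.860 of the whole range of the group, at 7536 against 3338. Chance flags about 1 in 20 such sets. The same library lay nearly as far out for Sst (0.822) and Pyy (0.812), which were not flagged, and these genes share the library.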

How the results depend on the processing

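The limits are 4 libraries a group, an unknown depth and a bulk mixture whose acinar, fat and blood content differed between groups. In what follows, percentages are of all tested genes in the same fit. Against a count of 2 hormone genes called at day 60 (43.7%), 1 was called with endocrine reference scaling (27.8%). With isolated islets 1 and day 60 graft 1 left out, 1 was called (57.9%). With array weights, whose estimation stopped before it converged, 5 were called (77.1%), and 5 without both grafts numbered 4 (39.8%). Leaving out 1 library gave 2 to 5 (30.6% to 51.5%). Against 3 at day 120 (31.4%), endocrine reference scaling called 1 (3.55%) and quantile normalization 1 (25.0%). With only the groups compared in the fit 5 were called (46.0%), and 5 without both grafts numbered 4 (19.4%). Leaving out 1 library gave 1 to 3 (13.8% to 41.4%). The cause was not tested. Between graft days the count was 0 in every setting run, where array weights called 21.4% and every other setting at most 0.15%. The count of ratios was also 0 in every setting run, where leaving out a library allows no permutation p under 0.0571 and pairs none under 0.125. With the replicate block the counts were 3, 3 and 0 (43.2%, 31.7% and 0.0149%), and Gcg at day 60 was the call it added. Over all tested genes, the 5865 calls at day 60 and 4212 at day 120 became 3737 and 477 with endocrine reference scaling and 10359 and 8943 with array weights. At day 120, leaving out isolated islets 2, 3 or 4 gave 1885, 1931 or 1839 calls, leaving out day 120 grafts 2 or 4 gave 2546 or 2557, leaving out both grafts numbered 4 gave 2565, and leaving out isolated islets 1 and day 60 graft 1 gave 7437.

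Signs turned only for values that had not passed. For Pyy, quantile normalization gave 0.0493 at day 60 and 0.51 at day 120, endocrine reference scaling 0.23 at day 60, and leaving out isolated islets 1 and day 60 graft 1 gave 0.24 and 0.0731. Sst at day 120 was 0.0235 with quantile normalization. Between graft days, endocrine reference scaling gave -0.57 for Gcg, -0.43 for Sst, -0.62 for Pyy, -0.48 for Ghrl and -0.62 for Iapp. Leaving out isolated islets 1 and day 60 graft 1 gave -0.28, -0.17 and -0.16 for Gcg, Sst and Pyy and -0.10 for Iapp. Iapp was also -0.47 with quantile normalization and -0.16 with array weights, Ppy 0.22 with array weights and Ghrl -0.0275 with a pseudocount of 10. Among ratios, leaving out both grafts numbered 4 gave 0.0552 for Gcg to Sst and -0.23 for Sst to Ppy at day 60. Without isolated islets 1 and day 60 graft 1, Gcg to Ppy at day 60 was 0.20, and Gcg to Iapp and Sst to Iapp between graft days were -0.17 and -0.0622. Leaving out 1 library at a time, Pyy ran from -0.45 to 0.13 at day 60 and from -0.23 to 0.18 at day 120. Between graft days Gcg ran from -0.28 to 0.52, Sst from -0.17 to 0.79, Ppy from -0.50 to 0.0955, Pyy from -0.16 to 0.41, Ghrl from -0.44 to 0.57 and Iapp from -0.10 to 0.14. The ratios ran from -0.28 to 0.51 for Gcg to Iapp, -0.13 to 0.79 for Sst to Iapp and -0.61 to 0.0945 for Ppy to Iapp between graft days. At day 60 they ran from -0.17 to 0.0552 for Gcg to Sst, -0.21 to 0.23 for Gcg to Ppy and -0.23 to 0.34 for Sst to Ppy.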
